A study of Mus musculus with 14 samples.

Results

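The cytosolic ribosomal protein genes were examined in bulk RNA sequencing of mouse dorsal root ganglia, the clusters of sensory neurons and their glia beside the spinal cord. Members were all entries with a symbol of the form Rpl or Rps followed by a number and at most one a or x, together with Rpsa, Rplp0, Rplp1 and Rplp2. The rule gave 76 genes, 46 of the large and 30 of the small subunit, of 20833 entries in one count table, and the same 76 symbols of 56691 entries in a second table. The first table holds 3 knockout libraries of the p75 neurotrophin receptor (labelled P75f/f-knockout) and 3 floxed control libraries (P75f/f). The second holds 4 libraries labelled 5xFAD-MUTANT, a transgenic line that carries mutant human amyloid precursor and presenilin genes, and 4 wild-type (WT) libraries. The study's stated interest was in secreted factors lost from sensory neurons without p75. No label gives age, sex, the Cre driver of the knockout or pooling of animals, and the extraction protocol covers cultured cells as well as tissue. Whether replicates are separate animals is not labelled, and the p-values then speak only to the spread between these libraries, which may be technical.

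Each cytosolic ribosome joins a small subunit, which reads the mRNA, to a large subunit, which forms the peptide bond. Every subunit carries a single copy of most of its proteins, while the acidic stalk proteins are present in several copies. Their mRNAs are among the most abundant of most cells and nearly all start with a pyrimidine tract (the terminal oligopyrimidine, or TOP, motif) through which translation is tuned by the mTOR pathway. In sensory neurons some of these mRNAs are also carried into the axon.

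Promoters are shown for the genes that stood farthest apart in the p75 table, the first 4 having some of the largest and the last 4 some of the smallest differences between replicate 3 and the other replicates, which are described further on. Each runs from 100 bases before to 10 bases after the first RefSeq start site (GRCm38.p6), in the direction of transcription. Capitals mark CTCTTTC (a pyrimidine tract), CCGGAAG (the ETS factor core) or AAGATGGC (the YY1 core), searched on both strands. GCCATCTT is AAGATGGC on the opposite strand.
Rpl5, chr5:107900428-107900537, plus strand: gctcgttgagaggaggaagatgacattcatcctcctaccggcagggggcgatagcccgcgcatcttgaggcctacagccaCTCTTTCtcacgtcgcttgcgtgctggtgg
Rps15a, chr7:118116138-118116247, minus strand: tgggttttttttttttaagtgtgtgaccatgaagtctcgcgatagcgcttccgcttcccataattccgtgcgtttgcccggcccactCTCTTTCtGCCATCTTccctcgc
Rps25, chr9:44407614-44407723, plus strand: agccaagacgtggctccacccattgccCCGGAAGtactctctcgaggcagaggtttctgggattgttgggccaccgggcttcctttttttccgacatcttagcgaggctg
Rpl27, chr11:101442145-101442254, plus strand: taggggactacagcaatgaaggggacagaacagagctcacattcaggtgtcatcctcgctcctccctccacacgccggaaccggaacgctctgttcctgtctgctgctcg
Rpl38, chr11:114668480-114668589, plus strand: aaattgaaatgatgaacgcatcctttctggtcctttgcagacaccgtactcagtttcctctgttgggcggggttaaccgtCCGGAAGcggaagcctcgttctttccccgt
Rps26, chr10:128626497-128626606, minus strand: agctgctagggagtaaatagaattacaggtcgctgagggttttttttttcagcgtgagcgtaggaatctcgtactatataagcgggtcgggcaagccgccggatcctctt
Rps6, chr4:86857358-86857467, minus strand: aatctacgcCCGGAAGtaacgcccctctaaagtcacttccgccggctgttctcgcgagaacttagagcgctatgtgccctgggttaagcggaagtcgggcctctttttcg
Rplp0, chr5:115559367-115559476, plus strand: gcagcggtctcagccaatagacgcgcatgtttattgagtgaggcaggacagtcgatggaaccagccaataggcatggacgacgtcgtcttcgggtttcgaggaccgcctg

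The exact string CTCTTTC stood close to the start in Rpl5 and Rps15a, and Rps15a also held the YY1 core. Other pyrimidine runs, such as that near the start of Rps6, were not searched for and are not marked. The ETS core was found in Rps25, Rpl38 and Rps6, at various distances, so neither set held 1 motif throughout. RefSeq promoters were found for 56 of the 76 genes, in the window from 250 bases before to 50 after any listed start. In it CCGGAAG occurred in 23 of 56 genes (41.1%), against 9.93% of all 27025 gene symbols with a promoter. CTCTTTC occurred in 17 (30.4%), against 9.28%, and AAGATGGC in 5 (8.93%), against 3.19%. TATAAA, the TATA box, occurred in 6 (10.7%), against 15.7%. These are letter matches, not measured binding.

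Library totals ran from 4731119 to 6052690 counts (p75 table) and from 13907070 to 19837836 counts (5xFAD table). Ngfr, which encodes p75, had 22.2, 24.9 and 37.7 CPM (counts scaled to a common library size) in knockout libraries 1 to 3, against 129, 124 and 91.1 CPM in floxed libraries 1 to 3. The groups did not overlap for Ngfr (log2 fold change -2.02, SE 0.35), although its adjusted p was 0.9999 over the 11890 genes tested (edgeR quasi-likelihood test, Benjamini-Hochberg). All 11 sensory neuron markers examined passed the filter on low counts in both tables, and so did markers of Schwann cells and satellite glia. The libraries thus held RNA of several cell types, which does not tell tissue from culture. In bulk RNA, fewer cells of a type and less RNA per cell cannot be told apart. Replicate 3 of both p75 genotypes stood apart from replicates 1 and 2, and results are given with and without it.

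The genes took 4.63%, 3.97% and 9.14% of all counts in knockout libraries 1 to 3, a mean of 5.92 ± 2.82% (SD, n = 3). They took 3.86%, 3.84% and 8.61% in floxed libraries 1 to 3, a mean of 5.44 ± 2.75% (SD, n = 3). Within each genotype replicate 3 was the high library, and the genotypes overlapped. The 95% Wilson interval of a share was at most 0.0231 percentage points to each side in this table, which covers counting error only. In the 5xFAD table the shares were lower, at 1.55%, 1.50%, 1.31% and 1.26% in 5xFAD libraries 1 to 4, against 1.62%, 1.81%, 1.33% and 1.44% in WT libraries 1 to 4. The means were 1.41 ± 0.141% in 5xFAD and 1.55 ± 0.209% in WT libraries (SD, n = 4 each), and the groups overlapped. Each 5xFAD library lay under the WT library of the same number.

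**Figure D1:**
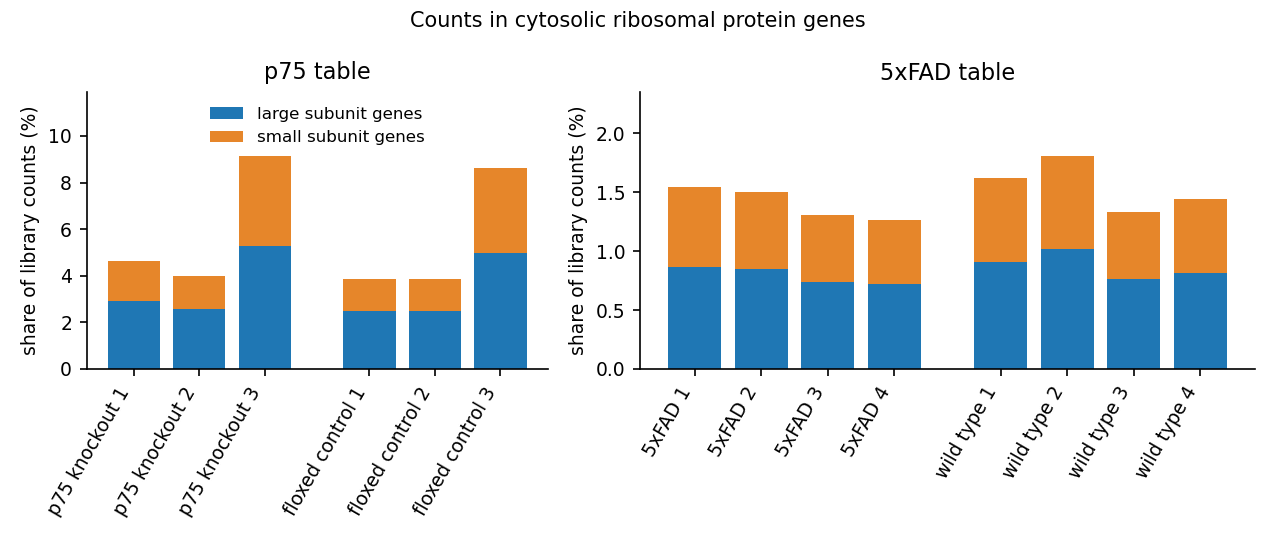
Share of each library's counts (%) in large and small subunit genes, stacked, with the p75 table on the left and the 5xFAD table on the right. The vertical axes differ. Replicate 3 of both p75 genotypes reaches 9.14% in the knockout and 8.61% in the floxed control, while no library of the 5xFAD table passes 1.81%.

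Both subunits took part in these differences, but not equally. Large subunit genes took 2.90%, 2.56% and 5.27% of counts in knockout libraries 1 to 3 and 2.48%, 2.48% and 4.97% in floxed libraries 1 to 3. Small subunit genes took 1.73%, 1.41% and 3.87% in the knockout libraries and 1.38%, 1.37% and 3.64% in the floxed libraries. Large over small subunit counts were 1.68, 1.82 and 1.36 in knockout libraries and 1.79, 1.82 and 1.36 in floxed libraries, so the ratio was lowest in replicate 3 of both. In the 5xFAD table this ratio was 1.3045 ± 0.0223 in 5xFAD and 1.295 ± 0.0292 in WT libraries (SD, n = 4 each).

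Levels differed widely between the genes. Per kilobase of transcript, the highest 4 in the p75 table were Rps14 (3577 CPM per kb, mean of 6 libraries) and Rps15 (3232), of the small subunit platform and head, then Rpl11 (2571) and Rplp1 (2529). The lowest there were Rps20 (114), Rpl18 (196), Rpl3 (215), Rpl12 (241) and Rps15a (261). These ranks rest on the annotated lengths, which were 5179 bases for Rps15a, 3706 for Rps20 and 2989 for Rpl18. By CPM alone Rps15a ranked 10, Rpl18 ranked 40 and Rps20 ranked 53 of the 76. In the 5xFAD table the highest were the stalk genes Rplp1 (885 CPM per kb, mean of 8 libraries) and Rplp0 (864), then Rps15 (764), Rps2 (673) and Rpl41 (628). The lowest were Rps13 (5.93), Rps29 (7.19), Rps23 (7.48), Rpl5 (7.57) and Rpl17 (7.96). Rplp1 and Rps15 were among the highest 5 of both tables.

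The p75 and 5xFAD tables were made separately, so their levels are set side by side without a test. The p75 mean over the 5xFAD table's mean ran from 0.462 for Rps2 to 169 for Rps13, with a median of 4.99 over the 76 genes and 3 genes below 1. Across the genes the Spearman rank correlation of the mean CPM in the 2 tables was 0.347 (n = 76 genes, which share libraries). Ribosomal protein genes have many processed pseudogenes, copies of the mRNA set back into the genome. By symbol (-ps), the 5xFAD table names 322 such entries against 3 in the p75 table. Copies under other names were not counted, so the pseudogene values given here may be too low. Rpl23 and Rps20 had 0 such entries in the 5xFAD table, although 68 and 50 other genes shared a 50-base stretch with their transcripts. For 14 of the 62 genes with pseudogene entries in the 5xFAD table, these held more counts than the gene itself. Rps6-ps4 had 61.0 CPM beside 17.3 CPM for Rps6, and Rpl17-ps10 had 97.6 CPM beside 10.6 CPM for Rpl17. The pseudogene entries named by symbol together came to between 9.28% and 9.70% of the genes' own counts in that table's libraries. How reads were shared out between near-identical copies is not given in the sources used here, so the level of such genes is uncertain.

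**Figure D2:**
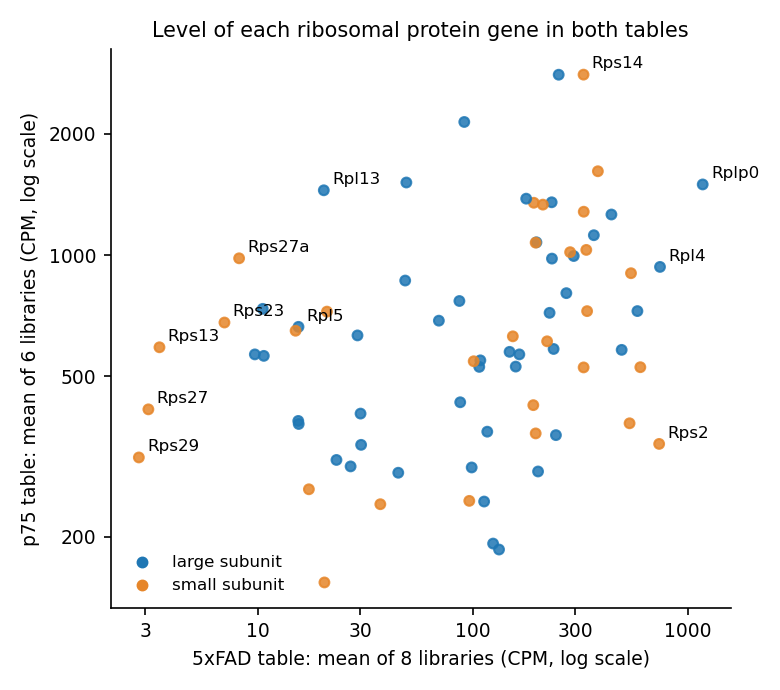
Mean level of each of the 76 genes in the p75 table (vertical, CPM, 6 libraries) against the 5xFAD table (horizontal, CPM, 8 libraries), both on log scales, with large and small subunit genes in different colours. Rps13, Rps27 and Rps29 lie far left, and Rps2 lies at the right with a lower p75 than 5xFAD level.

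The share of 50-base stretches of a gene's transcripts that also occur in other genes' transcripts ran from 0% to 95.1%, the highest being that of Rpl35. It had a Spearman correlation of -0.288 with the mean CPM in the 5xFAD table and of -0.124 in the p75 table (n = 76 genes). For GC content of the transcript and the level per kilobase the correlation was 0.362 for p75 and 0.327 for 5xFAD levels (n = 76 genes each). All are weak and are given as descriptions.

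In replicate 3 of the p75 table the ribosomal protein genes took more of the RNA in both genotypes. The median of the 76 genes, on the log2 CPM scale, was 1.28 higher in knockout replicate 3 than in knockout replicates 1 and 2, and 1.43 higher in floxed replicate 3 than in floxed replicates 1 and 2. Over all 11890 genes tested the mean of the 2 genotypes had a median of -0.05. In 64 of 76 genes (84.2%) both replicate 3 libraries were above all 4 others, which held for 23.3% of all genes tested, and in no member were both below, which held for 25.8%. No test was made of this difference, which crosses the genotypes. The labels give no batch that would separate replicate 3.

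Small subunit genes had a median difference of 1.47 and large subunit genes one of 1.22, as the mean over the 2 genotypes. Rpl5, which escorts 5S ribosomal RNA together with Rpl11 and with it binds Mdm2, stood out. It had 123, 124 and 1857 CPM in knockout libraries 1 to 3, against 123, 119 and 1637 CPM in floxed libraries 1 to 3. Replicate 3 was 14.2-fold higher in Rpl5, on the mean log2 scale. Of the 50-base stretches of Rpl5, 85.4% also occur in other genes' transcripts, so its level is uncertain. Its partner Rpl11 had 1452, 1848 and 3552 CPM in the knockout libraries and 1339, 1194 and 3468 CPM in the floxed libraries. Both genes were thus high in replicate 3 of each genotype, Rpl5 by far the more. Rps15a, a small subunit protein, was 5.09-fold higher and Rps25, which has a role in internal initiation on viral RNAs, 5.05-fold higher. The stalk gene Rplp1 followed at 2.03 on the log2 scale, and the large subunit gene Rpl27 at 1.99.

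Of the 12 genes that did not keep this order, Rpl38, which is known in mice for its part in translating Hox mRNAs, was the lowest, at -0.35 on the log2 scale. It had 440, 297 and 341 CPM in knockout libraries 1 to 3, against 284, 306 and 192 CPM in floxed libraries 1 to 3. Floxed replicate 3 was the lowest of the 6 libraries. Rps26 (0.0028) differed little. It binds the mRNA just upstream of the start codon. Rps6, the small subunit protein phosphorylated by S6 kinases, had 236, 243 and 208 CPM in knockout libraries and 212, 280 and 394 CPM in floxed libraries, so that its replicate 3 was low in the one genotype and high in the other. Further genes of the 12 were Rpl4, Rpl22, Rpl29, Rpl30, Rpl41, Rplp0, Rps28 and Rps29.

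**Figure D3:**
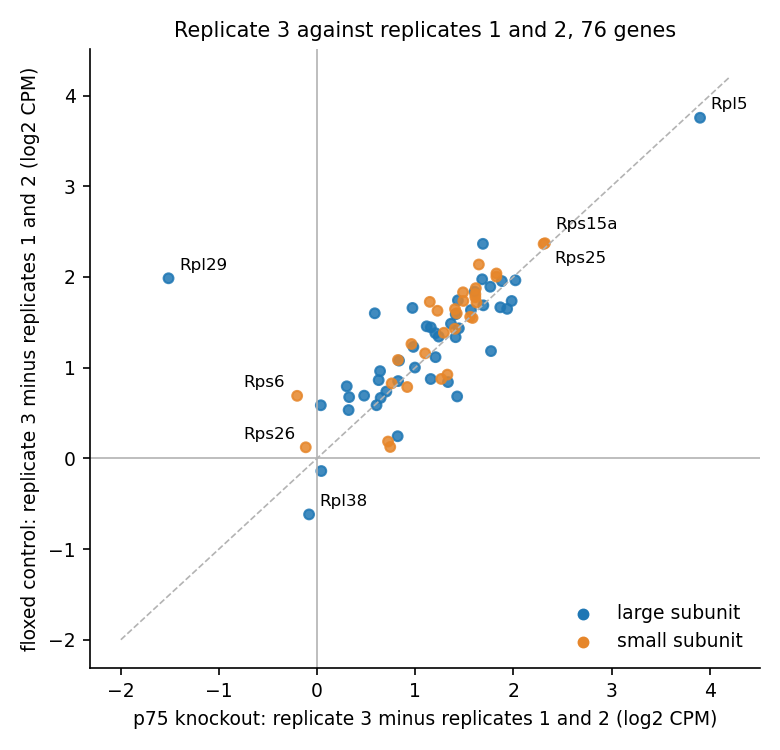
Difference between replicate 3 and the mean of replicates 1 and 2 (log2 CPM) for each of the 76 genes, in the p75 knockout (horizontal) and the floxed control (vertical), and the dashed line marks equal differences. Most genes lie near it between 0 and 2.4, Rpl5 lies at the top right, and Rpl29 is low in the knockout and high in the floxed control.

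Other gene groups moved with the ribosomal protein genes in these libraries. The same median was 0.75 for 78 mitochondrial ribosomal protein genes and 0.71 for 73 genes listed by symbol as nuclear oxidative phosphorylation subunits. It was 0.71 for 16 other TOP mRNA genes, 0.58 for 27 ribosome assembly genes and 1.16 for 4 paralogs. It was -1.73 for 10 mitochondrially encoded genes. The summed level of 6 Schwann cell markers was 4902 and 7154 CPM in the replicate 3 libraries of knockout and floxed mice, against 15299 to 17731 CPM in the other 4 libraries. That of 5 satellite glia markers was 287 and 151 CPM against 1259 to 1399 CPM, and that of 5 fibroblast markers 266 and 368 CPM against 1512 to 2024 CPM. Sensory neuron markers overlapped, at 1105 and 747 CPM against 196 to 1005 CPM, and so did macrophage markers, at 44.6 and 60.4 CPM against 5.46 to 47.7 CPM. Endothelial markers had 59.9 and 17.2 CPM against 6.58 to 101 CPM, red cell markers at most 0.219 CPM and muscle markers at most 0.529 CPM in any library. The part of these cell types in the ribosomal protein levels was not tested.

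**Figure D4:**
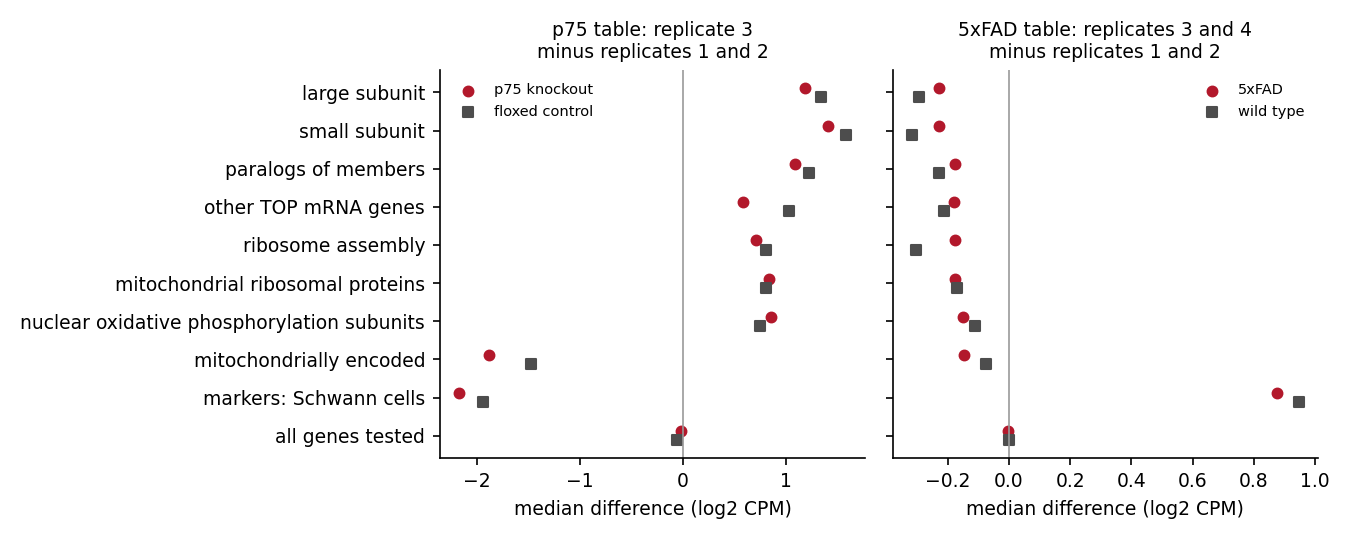
Median difference (log2 CPM) of gene groups between replicate 3 and replicates 1 and 2 of the p75 table (left) and between replicates 3 and 4 and replicates 1 and 2 of the 5xFAD table (right), with circles for p75 knockout or 5xFAD and squares for floxed control or WT. The horizontal scales differ. Ribosomal protein genes lie right of 0 in the p75 table and left of 0 in the 5xFAD table, with Schwann cell markers on the opposite side in both.

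Between knockout and floxed ganglia no ribosomal protein gene passed the test. None of the 76 had an adjusted p of under 0.05 with edgeR, and neither did any other gene (0% of 11890). With the replicate number as a block the test gave 0 of the 76 and 1 lower gene over all (0.00841%). At an unadjusted p under 0.05 the test gave 0 of the 76 and 54 higher and 86 lower genes over all, and DESeq2 called 0 of the 76 and 6 genes over all. The smallest unadjusted p of a member was 0.104 (Rpl29), and the SEs of the log2 fold changes ran from 0.33 to 1.34 with a median of 0.56. With the block the SEs ran from 0.18 to 0.64 with a median of 0.20. Rplp1, at 0.61 (SE 0.22), was then the only member with an unadjusted p under 0.05 (0.0188, adjusted p = 1, edgeR), beside 2.78% of all genes. The median log2 fold change was 0.16, beside 0.016 over all genes tested, and 66 of 76 genes lay above 0, beside 51.7% of all genes, and 10 below, beside 48.3%. It was 0.16 for large and 0.11 for small subunit genes. The direction rested on single libraries, since the median was -0.41 without knockout replicate 3, -0.09 without floxed replicate 1, -0.05 without floxed replicate 2 and 0.76 without floxed replicate 3. Without replicate 3 of both genotypes it was 0.20. Within replicate numbers the median log2 ratio of knockout to floxed was 0.30, 0.07 and 0.11 for numbers 1 to 3.

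Rplp0, the base of the stalk that recruits elongation factors, was the only member whose groups did not overlap. It had 1119, 1376 and 1274 CPM in knockout libraries 1 to 3, against 1394, 1594 and 2236 CPM in floxed libraries 1 to 3. All knockout libraries lay under all floxed libraries, the nearest being 1376 and 1394 CPM, in 1 of 76 members beside 2.99% of all genes that did so. On the log2 scale Rplp0 was -0.47 (SE 0.35), with an adjusted p of 0.9999 (edgeR). No member was higher without overlap, beside 2.72% of all genes. Rplp1, its partner in the stalk, had 867, 773 and 2643 CPM in knockout and 549, 381 and 2358 CPM in floxed libraries, which overlap. Rplp2 averaged 1212 CPM in knockout and 941 CPM in floxed libraries, and Rpl12 294 and 304 CPM, also with overlap.

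Rpl29, a large subunit protein also known as a heparin-binding protein, had the lowest log2 fold change, -1.23 (SE 0.67). It had 149, 145 and 51.1 CPM in knockout libraries 1 to 3, against 121, 151 and 537 CPM in floxed libraries 1 to 3. Replicates 1 and 2 of the genotypes overlapped, and only the replicate 3 libraries were far apart. Without replicate 3 of both genotypes the log2 fold change was 0.11. Rps6 followed at -0.37 (SE 0.35), Rpl15 at -0.15 (SE 0.40) and Rpl10 at -0.11 (SE 0.57). Rpl10 is the late-joining protein next to the peptidyl transferase centre. The direction for Rpl15, Rpl10 and Rpl37, given below, turned with the library left out.

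The highest log2 fold changes were those of Rps26 (0.59, SE 0.39), Rps21 (0.58, SE 0.51), Rps29 (0.53, SE 0.37), Rpl37 (0.52, SE 0.61) and Rpl38 (0.46, SE 0.35). Rps26 had 1055, 488 and 662 CPM in knockout libraries 1 to 3, against 415, 534 and 512 CPM in floxed libraries 1 to 3. Knockout library 1 was highest and knockout library 2 lay within the floxed range. Rps29 had 369, 248 and 499 CPM in knockout and 255, 238 and 280 CPM in floxed libraries, again with 1 knockout library inside the floxed range. A chosen list held 11 members mutated in human Diamond-Blackfan anaemia, a failure of red cell production, and need not be complete. Of these 11, 0 were called, beside 0% of all genes, and 10 lay above 0, beside 51.7%, with a median of 0.18. The X-linked genes Rps4x, Rpl10, Rpl36a and Rpl39 had a median of 0.17 and 0 calls, and Rplp0, Rplp1, Rplp2 and Rpl12 one of 0.16 and 0 calls.

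Genes of related function were likewise not called in the knockout, beside 0% of all 11890 genes. Since not even Ngfr was called, 0 calls do not set these groups apart. Of 16 other TOP mRNA genes, which encode translation factors and the like, 0 passed, with a median log2 fold change of 0.14. Of 27 ribosome assembly genes 0 passed (median 0.11). The smallest p there was that of Polr1a, the largest RNA polymerase I subunit, at 21.4 ± 5.86 CPM in knockout and 11.5 ± 2.76 CPM in floxed libraries (SD, n = 3 each; adjusted p = 0.9999, edgeR). None of 78 mitochondrial ribosomal protein genes (median 0.07), 73 genes of the nuclear oxidative phosphorylation list (0.14), 10 mitochondrially encoded genes (0.20) or 4 paralogs (0.09) passed. Neither did any cell type marker. The median log2 fold change was -0.18 for 11 sensory neuron, -0.45 for 6 Schwann cell and -0.04 for 5 satellite glia markers. It was -0.94 for 4 tested fibroblast, -1.58 for 5 macrophage and -0.82 for 3 endothelial markers, with 0, 1 and 0 above 0. Of the sensory neuron, fibroblast and macrophage markers 1 each was lower without overlap, beside 2.99% of all genes. Summed sensory neuron markers had 196 to 1105 CPM in knockout and 480 to 769 CPM in floxed libraries, Schwann cell markers 4902 to 17731 CPM and 7154 to 16107 CPM, satellite glia markers 287 to 1399 CPM and 151 to 1367 CPM, and fibroblast markers 266 to 1725 CPM and 368 to 2024 CPM, in the same order of genotypes. Macrophage markers had 5.46 to 44.6 CPM in knockout and 29.1 to 60.4 CPM in floxed libraries. All of these sums overlapped, and haemoglobin and muscle genes were too low to be tested.

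In 5xFAD ganglia the ribosomal protein genes lay slightly but almost uniformly below WT, without a call in any single gene. Of the 76 genes 73 had a log2 fold change below 0, beside 49.6% of all genes, and 3 above 0, beside 50.4%. The median was -0.15, beside 0.0019 over all 15845 genes tested. It was -0.15 for large and -0.15 for small subunit genes. None passed an adjusted p of 0.05 in the edgeR test, beside 3.6% of all genes (2.56% higher and 1.04% lower). At an unadjusted p under 0.05 the test gave 7 lower and 0 higher members, beside 1098 lower and 1472 higher of all genes tested. DESeq2 called 0 of the 76, beside 1028 of all genes. SEs ran from 0.05 to 0.24. The smallest adjusted p was 0.186 (Rpl10).

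Same-numbered libraries passed the measure given with the processing, but so did differently numbered ones, at up to 0.462. The numbers are thus not shown to be pairs. With the number as a block, 5 of the 76 were lower and 0 higher, beside 10.2% of all genes in either direction, 3.6% lower and 6.63% higher. The 5 were Rpl13a, Rpl12, Rpl10a, Rps4x and Rpl6. The SEs then ran from 0.05 to 0.21 with a median of 0.06, against a median of 0.12 without the block. At an unadjusted p under 0.05 the blocked edgeR test gave 32 lower and 0 higher members, beside 24.2% of all genes in either direction. Within numbers the median log2 ratio of 5xFAD to WT was -0.08, -0.27, -0.01 and -0.20 for numbers 1 to 4, with 59, 74, 42 and 69 of the 76 below 0. All 4 numbers gave a median below 0, but number 3 hardly did. With replicates 1 and 2 against 3 and 4 as a term, 12 were lower, beside 4.3% of all genes, and 0 higher, beside 7.48%. Replicates 1 and 2 alone gave 9 lower and 0 higher (beside 6.45% and 6.38%), with a median of -0.19. Replicates 3 and 4 alone gave 1 lower and 0 higher (beside 1.29% and 3.51%), with a median of -0.11.

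**Figure D5:**
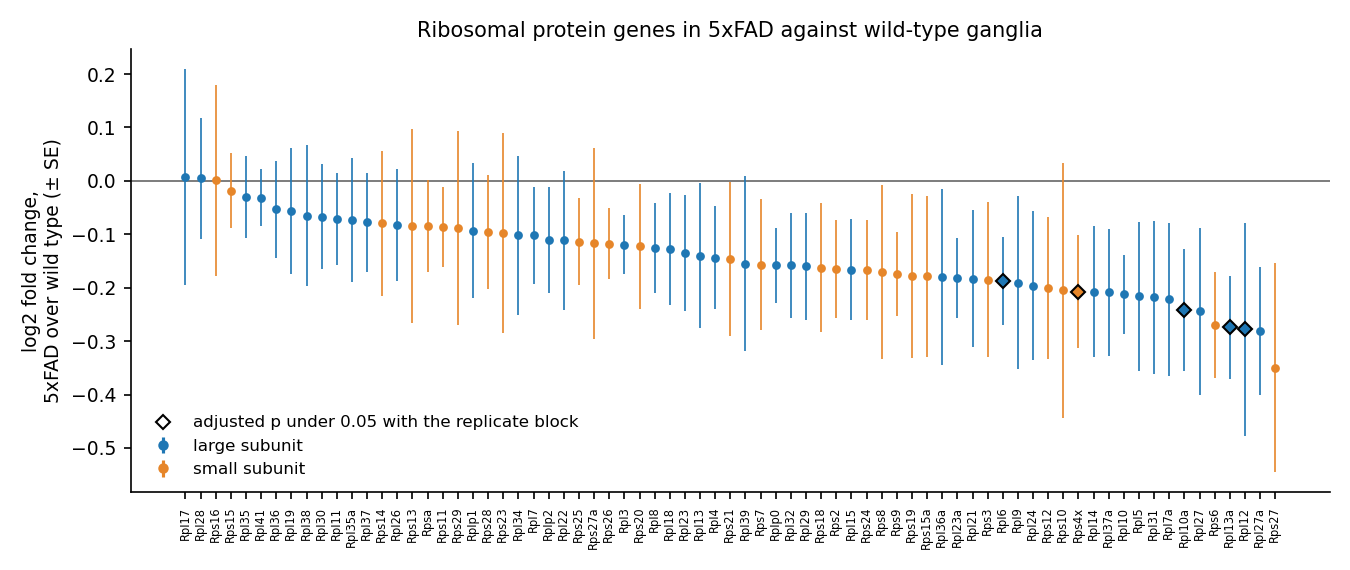
Log2 fold change of 5xFAD over WT for 73 of the 76 genes with its SE (edgeR, n = 4 each), ordered from high (Rpl17) to low (Rps27) and coloured by subunit. All but 3 points lie below 0, and the black-edged diamonds mark the 5 genes with an adjusted p under 0.05 when the replicate number is a block.

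Rpl13a, a large subunit protein known in human cells for silencing inflammatory mRNAs when released from the ribosome, had 173, 177, 151 and 141 CPM in 5xFAD libraries 1 to 4, against 201, 221, 172 and 182 CPM in WT libraries 1 to 4. It was lower in 5xFAD in all 4 numbers, although 2 5xFAD libraries lay above the lowest WT library. Rpl13a lay at -0.27 (SE 0.10) on the log2 scale, adjusted p = 0.187, and at -0.27 under the block, adjusted p = 0.00472 (edgeR).

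Rpl12, the large subunit protein at the foot of the stalk, had 28.7, 28.9, 19.6 and 20.4 CPM in 5xFAD libraries 1 to 4, against 32.5, 38.9, 22.2 and 25.3 CPM in WT libraries 1 to 4. Libraries 1 and 2 were high in both genotypes, and 5xFAD was lower in each number. Its log2 fold change was -0.28 (SE 0.20), with an adjusted p of 0.560, and of 0.0437 under the block (edgeR). Among the other stalk genes Rplp0 had 1125, 1181, 1096 and 1033 CPM in 5xFAD libraries 1 to 4, against 1251, 1348, 1151 and 1200 CPM in WT libraries 1 to 4. The ranges of Rplp0 overlapped through a single 5xFAD library, and the log2 fold change was -0.16 (SE 0.07; adjusted p = 0.303, edgeR). Rplp1 and Rplp2 lay at -0.09 and -0.11, within 2 SEs of 0.

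Rpl10 was the only member whose 5xFAD and WT libraries did not overlap, beside 4.47% of all genes that were lower without overlap and 6.61% higher. It had 28.2, 27.7, 25.6 and 26.3 CPM in 5xFAD libraries 1 to 4, against 30.2, 33.6, 32.2 and 29.1 CPM in WT libraries 1 to 4. Every 5xFAD library was below every WT library, at -0.21 on the log2 scale (SE 0.07; adjusted p = 0.186, edgeR). The block left it at an adjusted p of 0.0994. Rps4x, the X-linked small subunit gene, had 555, 526, 470 and 440 CPM in 5xFAD libraries, against 605, 666, 485 and 542 CPM in WT libraries. Rps4x was lower in all 4 numbers, at -0.21 on the log2 scale (SE 0.11), with adjusted p = 0.378, and 0.0489 under the block (edgeR).

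Rpl10a, a large subunit protein of the L1 stalk that not every ribosome carries in mouse embryonic stem cells, had 47.3, 42.9, 33.7 and 41.1 CPM in 5xFAD libraries 1 to 4, against 50.9, 55.9, 42.2 and 46.5 CPM in WT libraries 1 to 4. The adjusted p of Rpl10a was 0.334, and 0.0379 under the block (log2 fold change -0.24, SE 0.11; edgeR). Rpl6, a large subunit protein, had 239, 241, 219 and 213 CPM in 5xFAD libraries, against 264, 297, 231 and 246 CPM in WT libraries. For both genes the groups overlapped and 5xFAD was lower in all 4 numbers. The adjusted p of Rpl6 was 0.292, and 0.0427 under the block (log2 fold change -0.19, SE 0.08; edgeR).

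The lowest log2 fold change was that of Rps27, a zinc-finger protein of the small subunit, at -0.35 (SE 0.20). It had only 3.17, 2.61, 2.19 and 2.93 CPM in 5xFAD libraries 1 to 4, against 4.12, 3.30, 2.86 and 3.65 CPM in WT libraries 1 to 4. Rpl27a had -0.28 (SE 0.12) and Rps6 -0.27 (SE 0.10). Rps6 had 15.9, 15.6, 16.4 and 14.8 CPM in 5xFAD libraries, against 19.6, 19.8, 20.4 and 16.0 CPM in WT libraries. One WT library, number 4, lay within the 5xFAD range. Rps6 is uncertain here, given the pseudogene entry described above, and Rps27, given its low counts. The 3 genes above 0 were Rpl17 (0.0066, SE 0.20), Rpl28 (0.0046, SE 0.11) and Rps16 (0.0012, SE 0.18). They are uncertain too, with 139, 20.4 and 46.0 CPM in their pseudogene entries beside 10.6, 9.70 and 21.0 CPM in the genes. Rps15 lay just below 0 (-0.02, SE 0.07), and the sign of all 4 turned with the settings tried. Rpl41, the shortest of the ribosomal proteins, was steady, with 364, 363, 360 and 359 CPM in 5xFAD libraries and 354, 388, 379 and 357 CPM in WT libraries, or -0.03 on the log2 scale (SE 0.05).

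The remaining members with well-known roles lay between these. Rps3, at the mRNA entry site, had 641, 617, 500 and 494 CPM in 5xFAD libraries 1 to 4, against 703, 783, 512 and 562 CPM in WT libraries 1 to 4. Rps19, the gene most often mutated in human Diamond-Blackfan anaemia, had 213, 210, 165 and 147 CPM in 5xFAD libraries, against 221, 251, 167 and 194 CPM in WT libraries. In both genes libraries 1 and 2 were high and libraries 3 and 4 low in each genotype, and the groups overlapped. For the 11 listed Diamond-Blackfan members the median log2 fold change was -0.16, 0 lay above 0 and 0 were called. For the 4 X-linked and the 4 stalk genes the median was -0.19 and -0.13, also with 0 called.

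In replicates 3 and 4 of the 5xFAD table the ribosomal protein genes took less of the RNA than in replicates 1 and 2. On the log2 CPM scale the median difference was -0.23 in 5xFAD and -0.30 in WT libraries, and the mean of the genotypes was below 0 in all 76 genes, with a median of 0.0008 over all genes tested. In 37 of 76 genes (48.7%) all 4 of these libraries lay below the other 4, beside 8.77% of all genes, and in 0 above them, beside 9.42%. Rpl12 (-0.55) and Rps10 (-0.53), a small subunit protein, differed most, and Rpl41 (-0.01) least. Pseudogene entries of Rps10 had 73.9 CPM beside 37.2 CPM for the gene, so its level is uncertain. The groups of related genes had medians of -0.20 (other TOP mRNA genes), -0.23 (ribosome assembly), -0.17 (mitochondrial ribosomal proteins), -0.14 (nuclear oxidative phosphorylation), -0.09 (mitochondrially encoded) and -0.16 (paralogs). The summed level of the Schwann cell markers was 3326 to 4896 CPM in replicates 3 and 4 of both genotypes, against 1607 to 3348 CPM in replicates 1 and 2, and that of the fibroblast markers 2607 to 3702 CPM against 1415 to 1983 CPM. Macrophage markers had 96.8 to 126 CPM against 30.9 to 80.5 CPM. Endothelial markers were the other way, like the ribosomal protein genes, with 367 to 603 CPM against 561 to 805 CPM and a median difference of -0.47, all 4 below 0 in both genotypes. Satellite glia markers had 514 to 790 CPM against 406 to 547 CPM and sensory neuron markers 581 to 1167 CPM against 585 to 1161 CPM. The part of these cell types in the difference was not tested, and no test was made of this difference.

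Genes tied to ribosomes by function also lay below WT in 5xFAD ganglia. All 16 other TOP mRNA genes lay below 0 (median -0.09), and 1 (beside 1.04% of all genes) was called lower. This was Hnrnpa1, an mRNA-binding splicing factor, at 132 ± 3.15 CPM in 5xFAD and 153 ± 4.36 CPM in WT libraries (SD, n = 4 each; log2 fold change -0.21, SE 0.05, adjusted p = 0.0367, edgeR). Under the block Npm1, a nucleolar chaperone, and Eef1g, an elongation factor subunit, were lower as well, with adjusted p of 0.0426 and 0.0325 (edgeR). Of 27 ribosome assembly genes 2 lay above 0 and 0 were called (median -0.12). But 4 were lower under the block, beside 3.6% of all genes: Dkc1, the pseudouridine synthase, Bop1, Nop58 and Nop2. Dkc1 had 40.6 ± 2.34 CPM in 5xFAD and 50.9 ± 6.45 CPM in WT libraries (SD, n = 4 each; adjusted p = 0.0994, and 0.0152 under the block, edgeR).

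Paralogs of the members and proteins of other ribosomes were mixed. Of 5 paralogs tested 0 were called, with a median of -0.12. Rpl22l1, the paralog of Rpl22, had 27.6 ± 2.78 CPM in 5xFAD and 36.5 ± 6.51 CPM in WT libraries (SD, n = 4 each; adjusted p = 0.137, edgeR). Rpl7l1 had 81.2 ± 5.64 CPM in 5xFAD and 97.3 ± 9.16 CPM in WT libraries (SD, n = 4 each; adjusted p = 0.120, and 0.0135 under the block, edgeR). Of 82 mitochondrial ribosomal protein genes, with a median of -0.02, 1 was lower, beside 1.04% of all genes. This was Mrps6, at 19.1 ± 1.62 CPM in 5xFAD and 25.2 ± 2.34 CPM in WT libraries (SD, n = 4 each, adjusted p = 0.0486, edgeR). None of 77 nuclear oxidative phosphorylation genes, listed by symbol alone (median 0.03), or 16 mitochondrially encoded genes (median 0.08) was called. Under the block Mrps12 and Cox7a2l were higher (adjusted p = 0.0324 and 0.000386, edgeR), and mt-Nd1, a complex I subunit, was lower (adjusted p = 0.0451).

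Cell type markers moved with the 5xFAD comparison. Of 11 sensory neuron markers 9 were higher and 0 lower, beside 2.56% and 1.04% of all genes. The summed level of these markers was 1097 to 1167 CPM in 5xFAD against 581 to 746 CPM in WT libraries. The summed level of 6 Schwann cell markers was 3334 to 4896 CPM against 1607 to 3369 CPM, with 0 called and a median log2 fold change of 0.96. Of 5 satellite glia markers 1 was lower (500 to 790 CPM against 406 to 642 CPM). Fibroblast (1528 to 3702 CPM against 1415 to 3322 CPM), macrophage (30.9 to 114 CPM against 71.1 to 126 CPM) and endothelial markers (367 to 611 CPM against 599 to 805 CPM) gave 0 calls. The median log2 fold change was 1.19 for sensory neuron, 0.19 for satellite glia, -0.06 for fibroblast, -0.49 for macrophage and -0.40 for endothelial markers. Under the block the calls were 10 higher among sensory neuron markers and 5 higher among Schwann cell markers. They were 1 higher and 1 lower among satellite glia markers and 2 lower among endothelial markers. Over all genes 6.63% were then higher and 3.6% lower. Haemoglobin genes had at most 6.9985 CPM and muscle markers at most 1.0015 CPM in a library, and neither was tested. The part of these cell types in the ribosomal protein levels was not tested.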

How the data were processed

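Total RNA of 14 mouse dorsal root ganglion samples was sequenced. The 2 tables that the authors deposited hold raw counts in whole numbers. Per the submitters' processing notes the build was GRCm39, and for aligner, counter and strand setting the sources used here give nothing. Knockout columns bear the name P75-Adv, which the labels do not explain, and were matched to the knockout samples by number and elimination. Where several entries of the larger table shared a symbol, 3520 with fewer counts were kept under their identifiers.

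Each table was fitted alone in R 4.3.3 with edgeR 4.0.16 (filterByExpr, TMM, robust glmQLFit, glmQLFTest, no covariates), with Benjamini-Hochberg adjustment over all genes tested and a threshold of 0.05. CPM use TMM-scaled library sizes, and log2 ratios and differences between libraries add 0.5 CPM. The common dispersion was 0.300 (p75) and 0.0230 (5xFAD). Alternatives were DESeq2 1.42.0, limma 3.58.1 (voom), other scalings and filters, leaving out replicates and the replicate number as a block, and the fit was checked on simulated data. Deviations from the group means correlated between same-numbered libraries at 0.365, 0.324 and 0.602 (p75 table) and at 0.159, 0.393, 0.492 and 0.125 (5xFAD table), all over the 0.1 taken to show pairing, although differently numbered libraries reached 0.469 and 0.462. The measure therefore does not show that equal numbers are pairs. Blocked values are printed where they change a call.

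Members and gene lists were chosen with earlier results of these data known. Named genes were members with known roles, the 5 highest and 5 lowest log2 fold changes per comparison, called members, the 5 highest and lowest levels per kilobase, the 5 deviating most between libraries, and at most 4 genes per related list. A few genes under this rule are left out of the text, and with them 3 members out of the plot of 5xFAD fold changes. Genes named for replicate 3 were chosen after their values were seen. Transcript lengths and shared 50-base stretches came from the GENCODE M21 annotation, promoters from RefSeq GRCm38.p6. No coordinate was converted between builds.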

Additional observations from a re-analysis of the deposited data

How the results depend on the processing

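In the p75 table the count of all genes called was 0 with edgeR, 6 with the DESeq2 test, 1 with the replicate block and 6 without replicate 3 of both groups, and no setting called a ribosomal protein gene. Their median log2 fold change (0.16) ranged from -0.41 to 0.76 when 1 library was left out, and the difference in share (0.476 percentage points) from -1.14 to 2.06, both below 0 without knockout replicate 3, floxed replicate 1 or floxed replicate 2 (shares -1.14, -0.314 and -0.322; medians -0.41, -0.09 and -0.05). In the 5xFAD table the count of all genes called (570) was 1028 with the DESeq2 test, 1622 with the replicate block, 1866 with the split of replicates 1 and 2 against 3 and 4 as a term and 2053 in replicates 1 and 2 alone, and 237 to 516 with 1 library left out (237 without WT replicate 1, 323, 376 and 283 without 5xFAD replicates 1, 2 and 4). Ribosomal protein genes called were 5 with the block, 12 with the split, 9 in replicates 1 and 2 alone and 1 in replicates 3 and 4 alone. With any 1 library left out it was 0. In this order 6.58%, 15.8%, 11.8% and 1.32% of the members were lower, beside 3.6%, 4.3%, 6.45% and 1.29% of all genes. Higher were 0 members, beside 6.63%, 7.48%, 6.38% and 3.51% of all genes. Replicates 3 and 4 alone gave 771 calls over all genes. The median of the ribosomal protein genes ranged from -0.22 to -0.07 with 1 library left out. The share difference (-0.147) then ranged from -0.221 to -0.0621. Without WT replicate 2, 13 of the 76 genes were above 0. The cause was not tested.

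Single genes turned sign as follows, on the log2 scale. Rpl29 in the knockout was 0.11 without replicate 3 of both groups. Rpl10 in the knockout was 0.04 with limma-voom (0.0398) and the block (0.0391), 0.28 without replicate 3 of both groups, and -0.50 to 0.68 with 1 library left out, Rpl15 -0.31 to 0.12 and Rpl37 -0.32 to 1.03. In 5xFAD, Rpl17 was -0.0165 with limma-voom, -0.0279 with the block, -0.0154 with the split and -0.18 in replicates 3 and 4 alone (-0.22 to 0.14 with 1 left out). Rpl28 was -0.0002 with DESeq2 size factors and -0.0644 in replicates 3 and 4 alone (-0.0414 to 0.0525). Rps16 was -0.0039 with DESeq2 size factors, -0.0052 with the DESeq2 test, -0.0187 with the block, -0.0224 with the split and -0.19 in replicates 3 and 4 alone (-0.15 to 0.10). Rps15 (-0.0573 to 0.0212) turned with 1 library left out. No other call in the p75 table changed with the block. The highest counts of 4 p75 libraries, replicates 1 and 2 of both genotypes, were 65311 to 65469. They lay just under 65536, the number of distinct 8-base tags, though no label names tags. In replicate 3 the highest count was 56729 (knockout) and 50722 (floxed). A correction for such tags, added after seeing the data, gave a median of 0.14 and a share difference of 0.39. Corrected shares were 3.86%, 3.08% and 9.21% in knockout libraries 1 to 3 and 3.17%, 3.16% and 8.65% in floxed libraries 1 to 3. The part of such a ceiling in the replicate 3 difference was not tested.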
